A study of Nannospalax ehrenbergi and Mus musculus with 25 samples.

Results

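The 9 genes described here code for secreted antagonists of Wnt signaling. They are *Sfrp1*, *Sfrp2*, *Sfrp4*, *Sfrp5*, *Frzb*, *Wif1*, *Dkk1*, *Dkk2* and *Dkk3*, chosen by name, with earlier results of these data known. All 9 were listed in both RNA-seq tables, among 27988 genes in *Spalax* and 47593 in mouse.

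Wnt proteins are secreted ligands that bind Frizzled receptors and, for the β-catenin branch, the co-receptors Lrp5 and Lrp6. The secreted frizzled-related proteins (Sfrp, and Frzb, which belongs to the same family) carry a cysteine-rich domain like that of the Frizzled receptors and can hold Wnt proteins outside the cell. Wif1 also binds Wnt proteins, through a domain of its own. The Dickkopf proteins Dkk1 and Dkk2 bind Lrp5 and Lrp6 instead and leave the Wnt protein free. Dkk3 is a divergent Dickkopf protein for which no general block of Lrp receptors is established. In muscle and connective tissue these genes are mostly products of fibroblasts, fat, tendon and blood vessel cells, and several of them are often silenced or altered in tumors.

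*Spalax*, the blind mole rat, is a wild-caught, subterranean and outbred rodent, and mice were of the strain C57BL/6. The carcinogen 3-methylcholanthrene (3MCA) was injected once under the skin of the neck, at 1000 µg in 500 µl in *Spalax* and at 200 µg in 200 µl in mice. *Spalax* gave 4 untreated controls (1042, 1075, 2095, 6038) and 4 injected animals without a tumor, named tolerant, sampled at the injected side after 18 months (2251, 2261) or 30 months (2218, 2375). Of tumor-bearing *Spalax*, 2 had a granuloma, a benign fibrotic growth (600 at 14 months, 976 at 16 months), and 2 had a malignant fibrosarcoma (2240 at 18 months, 2230 at 30 months). Each of these 4 animals gave tissue of the injected side (IS), which is the tumor, and neck muscle of the uninjected side (UIS). Mice gave 3 untreated controls (M1, M2, M5) and IS and UIS tissue of 3 animals with fibrosarcoma (1019 at 14 weeks, 1023 at 12 weeks, 512 at 11 weeks). Mice were 3 to 4 months old and all male, while the age of *Spalax* was only estimated, from about 2 to over 10 years. All 4 *Spalax* controls were female, 3 of 4 tolerant animals were male, and 3 of 4 tumor-bearing animals were female. Each library came from 1 animal, so the spread given here is between animals.

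The values are reads per gene divided by 1 size factor per library, called normalised counts below. Libraries held 17025447 to 31179183 reads. A normalised count of 10 rested on 6.95 to 19.3 reads. The summed normalised count of 8 muscle markers (7 in the *Spalax* table) was at least 849300 in every control, tolerant and UIS library and at most 51170 in the 7 tumors. Fibroblast markers summed to 4480 to 65760 in the libraries without a tumor, except tolerant 2251 with 223100, and to 157700 to 1983000 in the tumors. In bulk tissue, fewer cells of a type and less RNA per cell cannot be told apart. All libraries of tumor-bearing animals, IS and UIS, carried single indexes and all control and tolerant libraries dual indexes, so index kind and group cannot be told apart wherever these were compared. The tolerant samples are from the injected side and the control and UIS samples are not, and side and group cannot be told apart in those comparisons either.

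In mouse (GRCm38, GENCODE vM21 annotation) the genes lie apart on 7 chromosomes. *Sfrp1* lies at chr8:23411502-23449632, *Sfrp2* at chr3:83766321-83774316, *Sfrp5* at chr19:42197971-42202252, *Sfrp4* at chr13:19623104-19632994 and *Frzb* at chr2:80411970-80447625. *Wif1* lies at chr10:121033960-121100650, *Dkk1* at chr19:30545863-30549665, *Dkk2* at chr3:132085292-132180304 and *Dkk3* at chr7:112116017-112159057. In *Sfrp2* 16.1% of the exon bases lie under the gene *Gm26771* of the other strand, which was listed at no more than 1.55 in any mouse library, and the exons of the other 8 genes lie under no other gene. The mouse coding sequences fall into subgroups. The proteins of *Sfrp1* and *Sfrp5* share 55.4% of their residues and *Sfrp2* shares 42.7% with *Sfrp5*, while *Sfrp4* and *Frzb* share 51.1%. Between these subgroups identity was 23.6% to 26.8%. Dkk1 and Dkk2 share 42.9%, and Dkk3 shares 23.9% with Dkk1 and 25.1% with Dkk2. The genes are described below in the order of these subgroups.

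To ask which antagonists differ between tumor and muscle, each tumor group was set against the uninjected muscle of its own animals. A gene counts as a differentially expressed gene (DEG) where limma, adjusted over all genes tested, gave a p of at most 0.05. Fold changes are on the log2(normalised count + 1) scale. A gene was tested where its normalised count reached 10 in enough libraries to fill the smaller group. It could so enter through its higher group alone. *Wif1* in granuloma reached 10 in IS only. *Sfrp5* in mouse, and *Sfrp5* and *Dkk2* in *Spalax* fibrosarcoma, reached 10 in UIS only. Their results are not independent of the filter. In granuloma 8 of the 9 antagonists were tested, all but *Dkk1*, and 2 were DEGs, *Dkk3* and *Sfrp4*, both higher in IS. Of all genes tested in granuloma 24.3% were DEGs, 11.7% higher and 12.6% lower. In *Spalax* fibrosarcoma 7 were tested, all but *Dkk1* and *Wif1*, and 4 were DEGs. *Sfrp4* was higher in IS, and *Dkk2*, *Sfrp1* and *Sfrp5* were lower, beside 36.3% DEGs among all genes, 17.4% higher and 19.0% lower. In mouse the same 7 were tested and 2 were DEGs, *Sfrp2* higher and *Sfrp5* lower, beside 45.1% among all genes, 22.8% higher and 22.3% lower. The median log2 fold change of the tested antagonists was 1.51 in granuloma, -0.99 in *Spalax* fibrosarcoma and 1.17 in mouse, and that of all genes -0.01, 0.03 and 0.11.

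**Figure D1:**
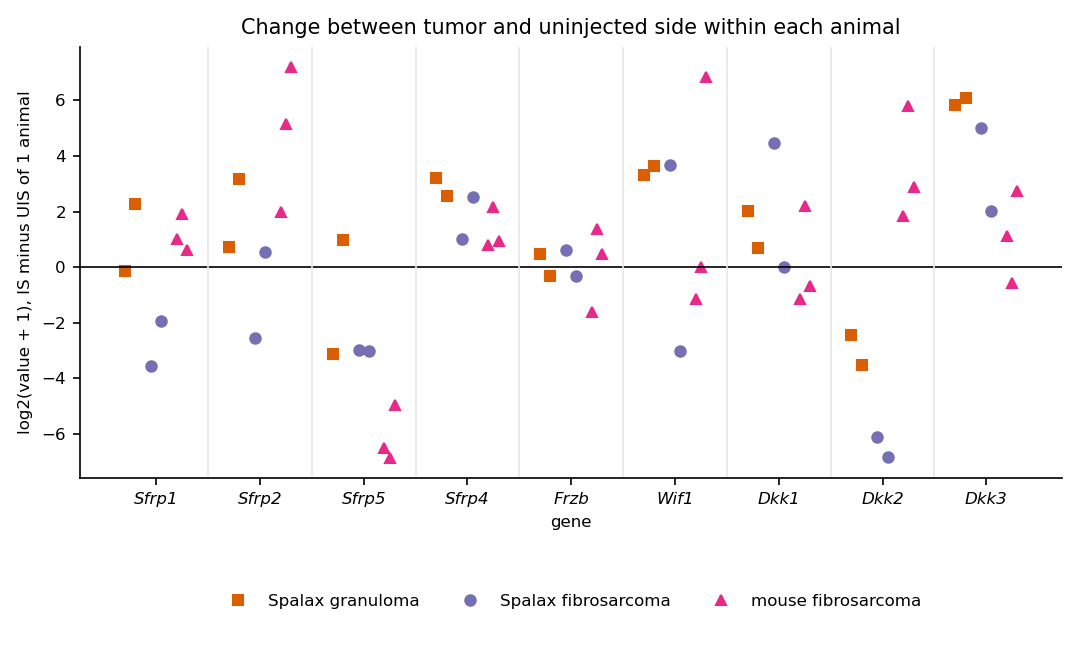
Difference in log2(normalised count + 1) between the tumor (IS) and the uninjected side (UIS) of 1 animal, for each antagonist and each of 7 animals, with 1 point per animal. *Dkk2* lies below 0 in all 4 *Spalax* (-2.45 to -6.84) and above 0 in all 3 mice (1.84 to 5.79), while *Sfrp4* lies above 0 in all 7 animals.

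*Sfrp1* codes for a widely expressed Sfrp and was one of the matrix genes that the study picked on these same samples, so its direction here is not independent evidence. In *Spalax* controls its normalised counts were 491, 1624, 368 and 506, and in UIS they were 406 and 505 with granuloma and 1010 and 490 with fibrosarcoma. The tumors fell apart by animal, with 367 and 2429 in granuloma (600, 976) and 84.8 and 128 in fibrosarcoma (2240, 2230). Both fibrosarcomas were thus lower than every other *Spalax* library, of which tolerant 2375 was the lowest with 197. In fibrosarcoma *Sfrp1* fell by 2.74 between UIS and IS (SE 0.49, limma adjusted p 0.0179). In granuloma it was not a DEG, and the 2 animals went opposite ways, by -0.15 in 600 and by 2.26 in 976. The difference of the IS against UIS difference between fibrosarcoma and granuloma was -3.80 (SE 1.18), and that of both IS groups -3.17 (SE 0.96). Unadjusted p was 0.0136 and 0.0235, and the limma adjusted p over all genes was 0.946 and 1.00.

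In mouse *Sfrp1* went the other way within animals. Mouse UIS libraries had 87.1, 160 and 30.2 and the tumors of the same mice 175, 599 and 46.3 (1019, 1023, 512). Each tumor was higher than its own uninjected side, by 0.60 to 1.90 on the log2 scale, but the groups overlapped widely and the gene was not a DEG. The untreated mice, with 377, 318 and 574, were higher than all UIS libraries.

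*Sfrp2*, a Sfrp that fibroblasts release in quantity, was the antagonist called higher in the mouse tumors by limma without the animal as a block. Normalised counts were 91.9, 6.19 and 4.32 in mouse UIS and 370, 253 and 793 in IS, beside 17.9, 6.03 and 48.9 in the controls. All 3 tumors lay above all 6 muscle libraries. *Sfrp2* rose by 4.79 in mouse IS (SE 1.14, limma adjusted p 0.0163). Without UIS 1023 the limma adjusted p was 0.0542, and without both libraries of mouse 1023 or of mouse 512 it was 0.117 or 0.0817, where 0.756% and 49.4% of all genes were DEGs.

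In *Spalax* the level of *Sfrp2* did not separate tumors from muscle. Controls had 347, 1386, 776 and 443, UIS libraries 355, 54.2, 1600 and 741 (600, 976, 2240, 2230), and tumors 592, 493, 273 and 1092 in the same order. The tolerant libraries ranged most widely, with 5543, 1692, 1199 and 153 (2251, 2261, 2218, 2375). Tolerant 2251 was the highest library of all, and tolerant 2375 lay below all controls. In granuloma the log2 difference between IS and UIS was 1.95 (SE 0.92, limma adjusted p 0.173), and it was 3.30 without UIS 600 (limma adjusted p 0.0370) and 0.61 without UIS 976 (0.290). In fibrosarcoma *Sfrp2* was not a DEG, except without IS 2230, where the difference was -1.99 (limma adjusted p 0.0283) and 56.4% of all genes were DEGs. Uninjected muscle with fibrosarcoma was 2.96 higher in *Sfrp2* than that with granuloma (SE 0.97), with an unadjusted p of 0.0284 and a limma adjusted p of 0.822. Granuloma UIS 976 was the lowest *Spalax* library. The difference was 1.62 without it (limma adjusted p 0.0479) and 4.30 without UIS 600 (limma adjusted p 3.70e-05), where the 1 granuloma library left was assumed to vary like those with fibrosarcoma. Of all genes 2.58% and 37.0% were DEGs in these 2 fits, against 0.0% with all libraries.

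*Sfrp5*, known as an anti-inflammatory product of fat tissue, was at or near 0 in all mouse tumors and fell in *Spalax* fibrosarcoma, but not in both granulomas. In mouse the normalised counts were 317, 131 and 226 in controls, 89.5, 117 and 63.3 in UIS, and 0, 0 and 1.05 in IS. The 3 tumors together held 2 reads of *Sfrp5* and the 3 UIS libraries 231. Scaled by the size factors, the level was 256-fold lower in the tumors (95% interval 70.1 to 2126, counting error only). *Sfrp5* fell by 6.12 on the log2 scale (SE 0.52, limma adjusted p 0.00128). Without both libraries of mouse 1023, where 0.756% of all genes were DEGs, the limma adjusted p was 0.0591.

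In *Spalax* fibrosarcoma *Sfrp5* went from 21.8 and 41.2 in UIS to 1.84 and 4.198 in IS (2240, 2230), and it fell by 3.01 (SE 0.65, limma adjusted p 0.0274). The granulomas differed from each other. Animal 600 went from 20.5 to 1.45 and animal 976 from 15.3 to 30.8, and the gene was not a DEG there. The summed normalised counts of 6 fat markers were lower in every tumor than in its own UIS. They were 253.7 to 834 in the mouse tumors against 10270 to 86710 in mouse UIS. In the *Spalax* tumors they were 178.2 to 1245, against 3869 to 15780 in their UIS. Of these markers Lep was at 0 in every *Spalax* tumor, but also in granuloma UIS 976 and in control 1042. In granuloma 976 the summed fat markers went from 3869 to 178.2, while *Sfrp5* was higher in IS. Their part in the result was not tested.

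*Sfrp4*, of the other Sfrp subgroup and known as a regulator of bone, was a DEG, higher in IS, in both kinds of *Spalax* tumor. Normalised counts went from 277 to 2583 in animal 600, from 154 to 906 in 976, from 358 to 728 in 2240 and from 206 to 1190 in 2230. Every tumor was higher than all UIS libraries. It rose by 2.88 in granuloma (SE 0.63, limma adjusted p 0.0305) and by 1.77 in fibrosarcoma (SE 0.43, limma adjusted p 0.0360). In 1 model over all *Spalax* libraries the limma adjusted p was 0.0523 and 0.222. Leaving out any 1 of the 4 granuloma libraries ended the call there, with fold changes of 2.13 to 3.64 and limma adjusted p of 0.0668 to 0.170, while 0.665% to 19.6% of all genes were DEGs. Untreated muscle had 179, 473, 162 and 158, and the tolerant libraries 3018, 430, 604 and 87.1, so that 2251 without a tumor was higher than every tumor.

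Mouse *Sfrp4* was also higher on the tumor side within each animal. UIS libraries had 24.2, 13.4 and 10.1 and IS 42.4, 63.5 and 20. The groups overlapped, and the log2 difference was 1.29 (SE 0.60, limma adjusted p 0.123). The mouse controls, with 45.6, 99.4 and 235, overlapped the tumors and reached above them.

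*Frzb*, a Sfrp first found in cartilage, did not separate tumors from their uninjected side in either species. In tumor-bearing *Spalax* all 8 libraries lay between 17.5 and 54.1, with 22.4 to 35.2 in UIS and 17.5 to 54.1 in IS. The tolerant libraries had 235, 245, 497 and 45.6 (2251, 2261, 2218, 2375), and the first 3 of these were the highest of all *Spalax* libraries. The controls, with 48.6, 147, 42.4 and 103, lay above all UIS libraries and below these 3 tolerant ones. In mouse *Frzb* was 94.5, 263 and 214 in controls, 114, 24.8 and 10.1 in UIS, and 36.2, 65.8 and 14.2 in IS.

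*Wif1* codes for a Wnt-binding protein outside the Sfrp family and was sparse. In *Spalax* muscle it had 9.95 to 31.2 in controls, 1.34 to 26.4 in the tolerant group and 0 to 7.11 in UIS. The tumors had 69.7 and 11.5 in granuloma and 42.4 and 0 in fibrosarcoma. Both granulomas were higher than their own uninjected side, which had 6.03 and 0. The log2 difference of 3.49 (SE 1.39) had a limma adjusted p of 0.124 without and 0.0496 with the animal as a block, the alternatives ranging from 0.0496 to 0.387. *Wif1* passed the filter here only through the granulomas, where it was high, so neither p is independent of the filter. In mouse *Wif1* was found in the 3 controls (4.07, 13.1, 57.4), and beyond 1.21 in UIS 1019 it was listed in 1 other library, the tumor of mouse 512, with 115.

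**Figure D2:**
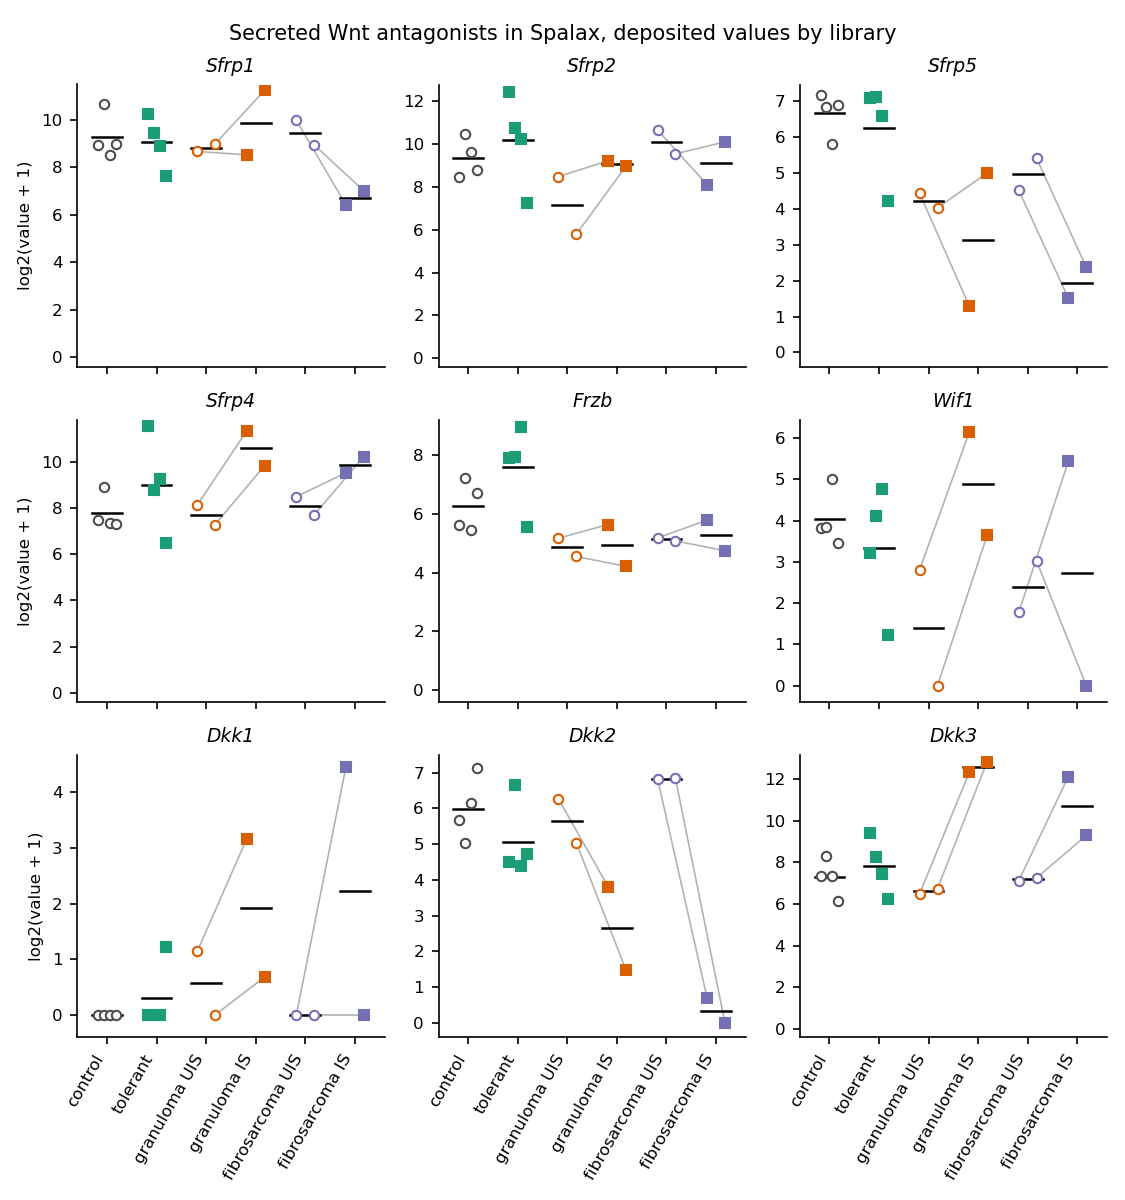
Log2(normalised count + 1) of each antagonist in the 16 *Spalax* libraries, with 1 point per library, squares for the injected and circles for the uninjected or untreated side, a black bar for the group mean and a grey line between both sides of 1 animal. *Dkk3* of the 4 tumors (625 to 7295) reaches above or close to the highest muscle library (689), and *Dkk2* of the fibrosarcomas lies at or near 0.

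*Dkk1*, the prototype inhibitor of Lrp5 and Lrp6, was at or near 0 in almost all libraries and was tested in no comparison. In *Spalax* it was listed at 0 in the 4 controls, in 3 of 4 tolerant libraries and in 3 of 4 UIS libraries. The values above 0 were 20.9 in fibrosarcoma 2240, 7.98 in granuloma 600, 0.604 in granuloma 976, 1.34 in tolerant 2375 and 1.21 in UIS 600. No mouse library had more than 3.56.

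*Dkk2*, the second Dickkopf that binds Lrp5 and Lrp6, was nearly absent from the *Spalax* fibrosarcomas, while each mouse tumor had more of it than the uninjected side. In *Spalax* fibrosarcoma its normalised counts went from 113 to 0.615 in animal 2240 and from 114 to 0 in animal 2230. The tumors held 1 read together and the uninjected sides 173. Scaled by the size factors, the level of *Dkk2* was 373-fold lower in the tumors (95% interval 66.1 to 14810, counting error only). *Dkk2* fell by 6.49 on the log2 scale (SE 0.55, limma adjusted p 0.00426). The granulomas had 13.1 and 1.81 against 76.0 and 31.8 on the uninjected side, and both were lower than all muscle libraries. The difference there was -2.998 (SE 1.08, limma adjusted p 0.0996). In 1 model over all *Spalax* libraries its limma adjusted p was 0.0199, the lowest of the alternatives, where 42.9% of all genes were DEGs. The difference between both tumor kinds was -3.49 (SE 1.34), with an unadjusted p of 0.0335 and a limma adjusted p of 0.946.

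Across *Spalax* muscle *Dkk2* stayed within 19.8 to 140. The controls had 49.7, 31.5, 69.9 and 140 and the tolerant libraries 21.8, 99.6, 19.8 and 25.5. Thus no *Spalax* library without a tumor lay below a tumor.

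In mouse the tumors had 4271, 7399 and 367 and the uninjected sides of the same animals 1195, 133 and 48.9 (1019, 1023, 512). The groups overlapped, since the tumor of 512 was lower than the uninjected muscle of 1019. The log2 difference of 3.50 (SE 1.49) had a limma adjusted p of 0.0978 without and 0.0243 with the animal as a block, the alternatives ranging from 0.0243 to 0.418. Controls were close together, with 404, 319 and 282. The tables of both species were normalised separately, so the contrast of *Dkk2* between *Spalax* and mouse tumors was described within animals and not tested.

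*Dkk3*, the divergent Dickkopf, was the antagonist that rose most in granuloma. It went from 89.2 to 5102 in animal 600 and from 106 to 7295 in animal 976, and it rose by 5.96 (SE 0.37, limma adjusted p 0.00490). In fibrosarcoma it went from 138 to 4438 in animal 2240 and from 152 to 625 in animal 2230. All tumors were higher than all UIS libraries, but the fibrosarcomas lay far apart. The log2 difference of 3.51 (SE 0.97) had a limma adjusted p of 0.0505 without and 0.0252 with the animal as a block, and the alternatives ranged from 1.66e-05 by DESeq2 to 0.273. The difference between both tumor kinds was -2.44 (SE 1.13, limma adjusted p 0.946).

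In *Spalax* muscle *Dkk3* had 161, 315, 161 and 69.6 in controls and 689, 300, 175 and 73.7 in the tolerant group. Tolerant 2251 was above fibrosarcoma 2230 and below the other 3 tumors. In mouse the tumors had 2077, 1705 and 1027 and their uninjected sides 954, 2562 and 153, so that mouse 1023 had more on the uninjected side. The gene was not a DEG there. Mouse controls had 117, 68.3 and 196.

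**Figure D3:**
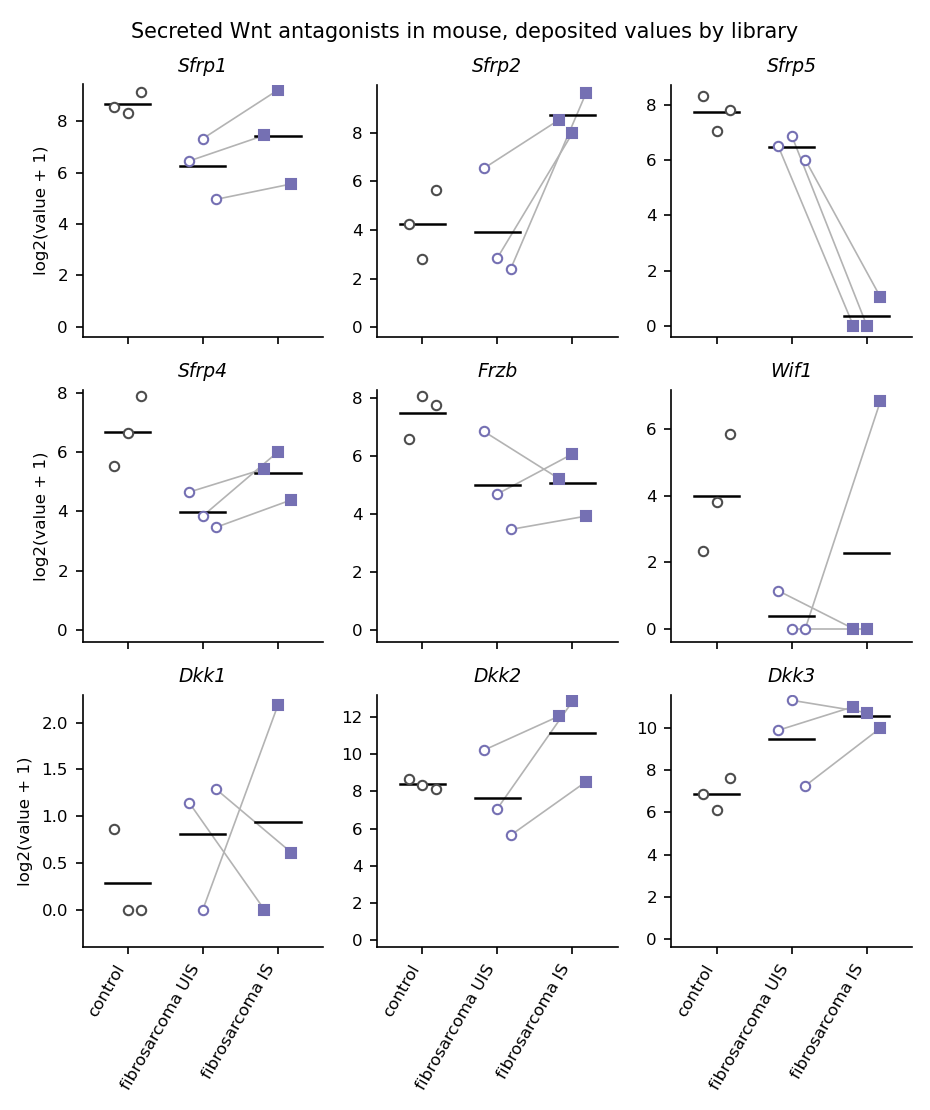
Log2(normalised count + 1) of each antagonist in the 9 mouse libraries, with 1 point per library, filled squares for tumors, open circles for muscle, a black bar for the group mean and a grey line between both sides of 1 animal. *Sfrp5* drops to 0, 0 and 1.05 in the 3 tumors, while *Sfrp2* of all tumors (253 to 793) lies above all muscle libraries.

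Leaving out 1 library ended several of these calls. In granuloma no antagonist was a DEG without IS 976, where *Dkk3* still differed by 5.70 with a limma adjusted p of 0.0538, and 0.665% of all genes were DEGs. Without 1 of both fibrosarcoma UIS libraries, whichever it was, none of the 4 calls was left and 0.0% of all genes were DEGs, while the fold changes of *Dkk2* stayed at -6.50 and -6.48. With the animal as a block the count of DEGs among the antagonists was 3 in granuloma, 5 in *Spalax* fibrosarcoma and 3 in mouse, the additions being *Wif1*, *Dkk3* and *Dkk2*. Of all genes 21.1%, 33.2% and 44.1% were DEGs in these fits.

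Tumors were next compared with tolerant tissue, since both are from the injected side. Over 4 tumors and 4 tolerant libraries 8 antagonists were tested and 4 were DEGs, where 46.4% of all genes were, 22.4% higher and 24.0% lower. *Dkk3* was higher in tumors by 3.80 on the log2 scale (SE 0.86, limma adjusted p 0.00692). *Dkk2*, *Sfrp5* and *Frzb* were lower in tumors, with log2 differences of -3.57 (SE 0.90), -3.70 (SE 0.96) and -2.49 (SE 0.72) and limma adjusted p of 0.0113, 0.0127 and 0.0197. Tumor and tolerant libraries were fully apart in 1 of the 8, *Dkk2*, and in 41.7% of all genes. The call of *Frzb* was lost without tolerant 2261 (limma adjusted p 0.0546), tolerant 2218 (0.0594) or granuloma IS 976 (0.0529), and with scaling by total reads (0.0614). *Sfrp2* and *Sfrp4* reached a limma adjusted p of 0.0310 and 0.0333 only without tolerant 2375 and tolerant 2251, respectively, which lay at the end of the tolerant range in each gene.

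Muscle without a tumor was compared between untreated, tolerant and tumor-bearing *Spalax* to ask whether the antagonists differ away from tumor growth. Between UIS and control 7 were tested by limma and 0 were DEGs, as in 0.0% of all genes. At an unadjusted p under 0.05 there were 2, *Sfrp5* and *Frzb*, and 1, *Sfrp5*, was called by DESeq2, which called 3.71% of all genes. *Sfrp5* had 142, 112, 54.9 and 117 in controls and 20.5, 15.3, 21.8 and 41.2 in UIS, and all UIS libraries were lower than all controls. Its log2 difference was -2.08 (SE 0.42, limma adjusted p 0.157, and 0.000651 by DESeq2, the lowest of the alternatives, of which the highest was 0.347). The study listed *Sfrp5* from this same comparison, so the difference is not independent evidence. *Frzb* was likewise lower in all UIS libraries than in all controls, by -1.26 (SE 0.44, limma adjusted p 0.236). Groups did not overlap in these 2 antagonists and in 12.7% of all genes.

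Summed fat markers were 3869 to 15780 in UIS and 8086 to 24700 in controls, and Schwann cell markers 419.5 to 2452 and 1154 to 6490. Both of these lists overlapped between the groups. Endothelium markers were 7678 to 9310 in UIS and 9763 to 12400 in controls, without overlap. Smooth muscle and pericyte markers, with 7035 to 11770 and 14160 to 17510, did not overlap either. Their part in the lower *Sfrp5* and *Frzb* was not tested.

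Between tolerant and control 8 antagonists were tested and 0 were DEGs by limma (0.0% of all genes), edgeR or DESeq2, and 0 had an unadjusted p under 0.05. In 0 of the 8 the groups did not overlap, against 3.86% of all genes. The lowest p was that of *Frzb*, with a log2 difference of 1.33 (SE 0.69, limma adjusted p 0.923).

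Between UIS and tolerant 0 of 7 were DEGs by limma (0.00713% of all genes) and 2 had an unadjusted p under 0.05. *Frzb* was 22.4 to 35.2 in UIS and 45.6 to 497 in tolerant muscle, and the groups did not overlap, as in 4.11% of all genes. Its log2 difference was -2.59 (SE 0.64, limma adjusted p 0.880, with alternatives from 0.000817 by DESeq2 to 0.996). DESeq2 called this 1 antagonist and 0.271% of all genes. *Sfrp5* differed by -1.65 (SE 0.67, limma adjusted p 0.880), the tolerant libraries having 134, 138, 93.9 and 17.4. The difference of *Dkk2* was 1.18 (SE 0.61, limma adjusted p 0.880). Summed tendon and cartilage markers spanned 790.8 to 11020 in the tolerant group and 1817 to 7044 in UIS. Schwann cell markers were 941.4, 2721, 4731 and 710.3 in the tolerant libraries (2251, 2261, 2218, 2375) and 419.5 to 2452 in UIS. Their part in the difference was not tested.

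Granuloma and fibrosarcoma were compared directly as well. The granulomas were sampled at 14 and 16 months and the fibrosarcomas at 18 and 30 months. Time and tumor kind thus cannot be told apart, and the only male was fibrosarcoma animal 2230. By limma 0 antagonists were DEGs in IS, of 6 tested, in UIS, of 7, or for the difference of differences, of 8, and in each 0.0% of all genes were. At an unadjusted p under 0.05 there were 1, 1 and 2. *Dkk2* differed by 1.185 between the UIS groups (SE 0.57, limma adjusted p 0.82). The difference of differences of *Sfrp2* was -2.945 (SE 1.37, limma adjusted p 0.946). DESeq2 called *Sfrp1* in IS (adjusted p 0.00689) and for the difference of differences (adjusted p 0.0271), beside 1.05% and 0.565% of all genes. The other alternatives for *Sfrp1* reached up to 1.00 in both.

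In mouse the UIS libraries were compared with the controls as the counterpart. By limma 0 of 7 antagonists were DEGs (0.0% of all genes), and 5 had an unadjusted p under 0.05. *Sfrp1* differed by -2.43 (SE 0.60, limma adjusted p 0.345), *Sfrp4* by -2.70 (SE 0.66, 0.344) and *Sfrp5* by -1.26 (SE 0.42, 0.442). All 3 UIS libraries were lower than all 3 controls in these 3 genes, and groups did not overlap in 21.2% of all genes. *Frzb* differed by -2.46 and *Dkk3* by 2.62, with limma adjusted p of 0.442 and 0.446, and both overlapped. DESeq2 called *Sfrp1*, *Sfrp4* and *Dkk3*, and 2.31% of all genes. Summed fat markers were 91620 to 154700 in mouse controls and 10270 to 86710 in UIS, and fibroblast markers 26840 to 65760 and 4480 to 32880. Tendon and cartilage markers were 2034 to 7380 in controls and 361.3 to 691 in UIS, and brown fat markers 34920 to 56480 and 12.96 to 19230. Their part in these differences was not tested.

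Levels can be set beside each other between genes per kb of exon, which was at hand for mouse. In untreated mouse muscle the mean normalised counts per kb were 118 for *Sfrp5*, 96.8 for *Sfrp1*, 90.5 for *Dkk2* and 58.9 for *Frzb*, then 37.9 for *Dkk3*, 30.4 for *Sfrp4*, 11.3 for *Sfrp2*, 10.2 for *Wif1* and 0.112 for *Dkk1*. Neighbors in this order overlapped over the 3 libraries, except that all of *Wif1* lay above all of *Dkk1*. In the mouse tumors *Dkk2* led with 1083 per kb, followed by *Dkk3* with 477 and *Sfrp2* with 219. The ranges of these 3 overlapped, from 99.0 to 1997 in *Dkk2*, 306 to 618 in *Dkk3* and 117 to 368 in *Sfrp2*. *Sfrp1* had 62.6, *Frzb* 12.0 and *Sfrp4* 10.0, and the 15.8 of *Wif1* came from the tumor of mouse 512 alone (47.3), the other 2 being at 0. *Sfrp5*, first in untreated muscle, was last with 0.185, but overlapped *Dkk1* with 0.561.

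**Figure D4:**
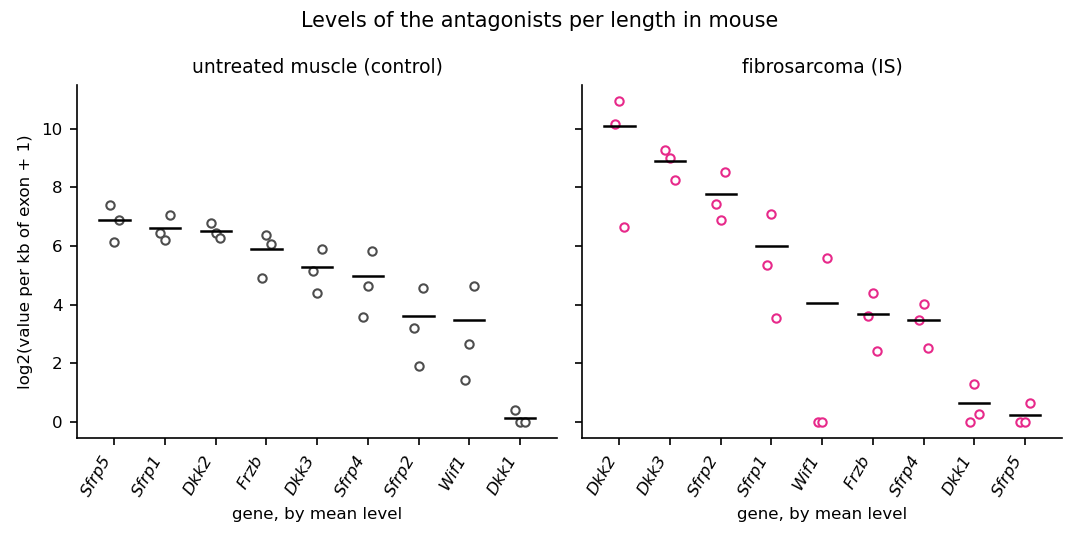
Levels of the 9 antagonists per kb of exon in untreated muscle (left) and fibrosarcoma (right) of mouse, as log2(normalised count per kb + 1), with 1 circle per library and a bar at the log2 of the group mean + 1, ordered by mean. *Sfrp5* stands first on the left (118 per kb) and last on the right (0.185 per kb), and *Dkk2* leads on the right (1083 per kb).

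The other genes of the pathway were taken from lists by role. Their counts stand beside DEGs of 24.3% of all genes in granuloma, 36.3% in *Spalax* fibrosarcoma, 45.1% in mouse and 46.4% between tumor and tolerant tissue. Of 6 other secreted antagonists 2 were tested between tumors and tolerant tissue. *Dkkl1*, a relative of Dkk3, was a DEG there, higher in tumors by 4.13 (SE 1.15, limma adjusted p 0.0172). Its normalised counts were 109, 23.6, 16.6 and 433 in the tumors (600, 976, 2240, 2230) and at most 10.9 in every other *Spalax* library. *Dkkl1* thus passed the filter of 10 through the tumors, where it was high, so its call is not independent of the filter. R-spondins are secreted proteins that strengthen Wnt signaling. Of 4 R-spondins 2 were tested in *Spalax* fibrosarcoma, and *Rspo3* fell by 3.63 (SE 0.76, limma adjusted p 0.0262). It was also a DEG, lower in tumors, against tolerant tissue. In granuloma and mouse 3 were tested in each and none was called by limma, with median log2 differences of -1.89 and 3.90.

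Of 19 Wnt ligands 8 were tested in each kind of *Spalax* tumor and 10 in mouse. In granuloma 1 rose, *Wnt5a*, the main ligand of the branch without β-catenin, by 3.80 (SE 0.88, limma adjusted p 0.0349). In fibrosarcoma 2 fell, *Wnt4* (-5.69) and *Wnt9a* (-2.85), with limma adjusted p of 0.00572 and 0.0140. In mouse 2 rose and 3 fell, among them *Wnt7b* with 5.30 (SE 1.05, limma adjusted p 0.00910) and *Wnt4*, which fell by 4.38. The other ligand that rose in mouse was *Wnt5a*, with a mean normalised count of 223 in UIS and 2300 in IS. *Wls*, which carries Wnt proteins to the cell surface, rose in granuloma (2.81), in *Spalax* fibrosarcoma (1.31) and in mouse (2.53), with limma adjusted p of 0.0394, 0.0445 and 0.00739.

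Of 22 receptors and co-receptors 5 rose and 1 fell in granuloma (21 tested), 4 rose and 5 fell in *Spalax* fibrosarcoma (19 tested), and 5 rose and 4 fell in mouse (19 tested). *Ror2*, a receptor of Wnt5a, rose by 5.15 in granuloma (SE 0.49, limma adjusted p 0.00658) and by 4.84 in mouse (SE 0.87, limma adjusted p 0.00684). It rose in *Spalax* fibrosarcoma as well, from a mean normalised count of 42.1 in UIS to 445 in IS. Of 17 intracellular genes, all tested, 0 rose and 1 fell in granuloma, 1 rose and 3 fell in *Spalax* fibrosarcoma, and 5 rose and 2 fell in mouse. *Lef1*, a transcription factor that works with β-catenin, rose in *Spalax* fibrosarcoma by 3.09 (SE 0.56, limma adjusted p 0.0185).

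Among 8 target genes 2 rose in granuloma (7 tested), 2 in *Spalax* fibrosarcoma (6 tested) and 2 in mouse (7 tested). In mouse 1 target fell, *Axin2*. *Ccnd1*, the cell cycle gene that codes for cyclin D1, rose in all 3 tumor kinds, by 6.14, 3.18 and 5.46, with limma adjusted p of 0.0147, 0.0285 and 0.00892. Median log2 fold changes of the receptors were -0.52, -0.54 and 0.32 and those of the targets 1.36, 0.68 and 1.23 in granuloma, *Spalax* fibrosarcoma and mouse, beside -0.01, 0.03 and 0.11 over all genes.

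**Figure D5:**
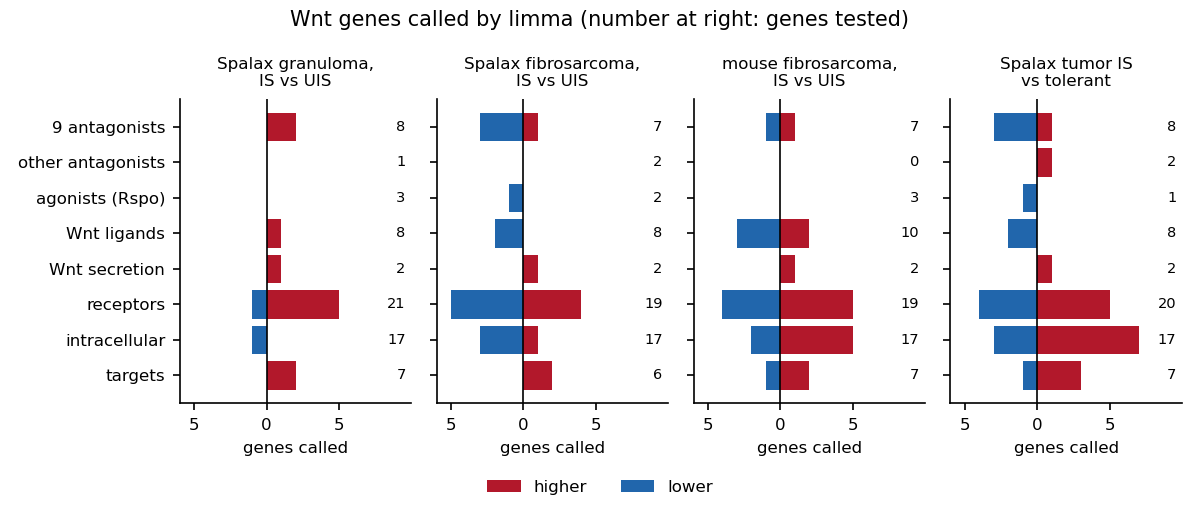
Number of genes called higher (red, to the right) or lower (blue, to the left) by limma at an adjusted p of at most 0.05, for the 9 antagonists and for 7 lists of other Wnt genes by role, in 4 comparisons, with the number tested at the right of each panel. In *Spalax* fibrosarcoma 3 antagonists were lower and 1 higher, and in granuloma 2 were higher and 0 lower.

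Genes of similar pattern were sought for each antagonist by Pearson's r of log2(normalised count + 1) over all libraries of a species, which share the contrast of tumor and muscle, so that r is high for many genes. In *Spalax* (16 libraries) *Dkk3* was most like *Twist2* and *Tnc* (r 0.97 each) and *Dkk2* most like *Lonrf2* (0.95) and *Lrrc56* (0.94). *Sfrp4* was most like *Scube3* (0.93) and *Aebp1* (0.92), *Sfrp5* like *Spns2* (0.93) and *Tenm2* (0.91), and *Sfrp2* like *Rpl26l1* (0.90) and *Mamdc2* (0.89). For *Wif1* they were *Cadm4* and *Mlf2* (0.87 each), for *Sfrp1* *Omd* (0.83) and *Ecm2* (0.81), and for *Frzb* *Isl1* (0.83) and *Pamr1* (0.77). In mouse (9 libraries) *Dkk2* was most like *Tmem51* and *Twist2* (0.98 each) and *Dkk3* like *Il1b* (0.98) and *Osm* (0.97). *Sfrp1* was most like *F13a1* (0.99), *Sfrp2* like *Pcyt1b* (0.98), *Frzb* like *Abi3bp* (0.97), *Wif1* like *Gpc3* (0.96) and *Sfrp4* like *Glt8d2* (0.93).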

How the data were processed

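RNA-seq libraries numbered 16 in *Spalax* and 9 in mouse. Per the labels and methods, the authors made stranded libraries, trimmed single-end reads with Trimmomatic 0.33, mapped them with TopHat (1.4.1 in the submitters' processing notes) to the *Spalax* genome or to the mouse genome (GRCm38 in those notes) and counted reads per gene with HTSeq. The strand setting of the counting is not given in the sources used here, so the *Sfrp2* reads of both strands cannot be told apart. What was deposited is a signal for each gene, made by the authors from read counts through division by 1 size factor for each library. In every library 100% of them were whole multiples (tolerance 0.1 reads) of the value of 1 read, 0.517 to 1.44, and whole reads were recovered by division. In the *Spalax* table a comma stood for the lower-case t in 2387 gene names, and the 16 values of a row were taken from its end.

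The main test was limma 3.58.1 (lmFit, eBayes with trend) in R 4.3.3 on log2(value + 1), over the groups compared, on genes that reached 10 in enough libraries to fill the smaller group, with Benjamini-Hochberg adjustment over all genes tested. The design named this test because an earlier analysis had found the unit. Alternatives were a pseudocount of 0.1, no filter, scaling by total reads, edgeR 4.0.16 and DESeq2 1.42.0 on recovered reads, 1 model over all libraries of a species, leaving out each library, and the animal as a block. The limma fit was tested on simulated counts of a fixed dispersion without an animal effect. That test does not show how the fit performs at the spread between the animals studied here. IS and UIS samples with the same number come from the same animal, which is the source of the pairing. The correlation of their deviations from the group means was 0.009 in granuloma, -0.002 in *Spalax* fibrosarcoma and 0.047 to 0.178 in mouse. Intervals of read ratios are exact and cover counting error only.

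All 9 antagonists are named, and of each pathway list the 2 DEGs of largest change in a comparison at most, apart from *Axin2*. Fold changes of the main test are printed for antagonists with an unadjusted p under 0.1. The members and lists were chosen with earlier results of these data known. Protein identity was computed from translated GENCODE vM21 coding sequences. Python 3.11.15 with matplotlib 3.10.9 made the plots. Species were not compared in 1 fit. The genes most like *Sfrp5* in mouse are not reported here.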

Additional observations from a re-analysis of the deposited data

Results flagged for a closer look

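All antagonists were examined in the *Spalax* control and tolerant groups, of 4 libraries each. In 5 of these sets of 1 gene in 1 group, 1 library lay far from the other 3 by Dixon's criterion. Chance meets it in about 1 in 20 sets of normally distributed values, while normalised counts without a log were used here. In the *Spalax* controls *Sfrp1* (1624) and *Sfrp4* (472.8) were highest in 1075 and *Wif1* (31.18) in 2095. In the tolerant group *Dkk2* (99.64) was highest in 2261 and *Dkk1* (1.34) in 2375, at 1 read. The other 3 tolerant libraries had 0 for *Dkk1*, so any read would have met the criterion.

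Within animals the mean log2 change from UIS to IS had opposite signs in every animal of both groups in 3 cases, and the differences were not tested. *Dkk2* was higher by 9.99 in mouse fibrosarcoma than in *Spalax* fibrosarcoma and by 6.50 than in granuloma. *Sfrp1* was higher by 3.91 in mouse fibrosarcoma than in *Spalax* fibrosarcoma.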

How the results depend on the processing

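Of 80 fold changes of antagonists, the 36 printed (unadjusted p under 0.1) kept their direction under every alternative run, while 25 of the other 44 changed sign under at least 1. The 36 were picked by their p in these same libraries, so the kept direction is not independent evidence. When single libraries were left out, the number of DEGs among the antagonists ranged from 0 to 2 in granuloma (2 with all libraries), from 0 to 6 in *Spalax* fibrosarcoma (4), from 1 to 3 in mouse (2) and from 0 to 2 between UIS with fibrosarcoma and UIS with granuloma (0). Of all genes 0.665% to 19.6%, 0.0% to 57.1%, 27.8% to 46.1% and 0.0% to 37.0% were DEGs in the same fits. Leaving out both libraries of 1 mouse was chosen after seeing the data, and gave 0 antagonists without mouse 1023 (0.756% of all genes). DESeq2 called 1 antagonist between UIS and control, 1 between UIS and tolerant, 1 between both IS groups, 1 for the difference of differences and 3 between mouse UIS and control, where limma and edgeR called 0. Without a filter 2 of the 4 calls in *Spalax* fibrosarcoma were left, *Sfrp5* and *Sfrp4* having limma adjusted p of 0.0516 and 0.0540. Scaling by total reads shifted the median log2 change of all genes by up to 1.06, in mouse, where it called 4 antagonists, adding *Dkk2* and *Sfrp4*, and 60.6% of all genes. Of all DEGs 75.0% in granuloma, 75.7% in *Spalax* fibrosarcoma, 81.9% in mouse and 71.8% between tumor and tolerant tissue were then higher, against 48.0%, 47.8%, 50.5% and 48.2%. The replicate block of the animal gave 3, 5 and 3 DEGs in the 3 tumor comparisons and 0 for the difference of differences. Pairing was possible in no comparison of different animals. Calls of the pathway genes named were kept in 228 results of whole alternatives and lost in 20, and kept in 166 and lost in 71 without single libraries. Where 1 library was left in a group, it was assumed to vary like the other group. The cause of these changes was not tested. *Dkk1* had too few reads to be tested in any comparison.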
